A study of Mus musculus with 4 samples.

Results

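Otx2, Fgf5, Pou3f1, Zic2 and Sall2 are 5 genes picked by their symbols as regulators of formative pluripotency, out of 32285 genes in the deposited single-cell count matrix, of which 24836 had a transcript in a kept cell. The rule used no measured value, though it was set with earlier results of these data known. All 5 had UMIs (unique molecular identifiers, one per captured transcript) in every library. The cells were mouse embryonic stem cells of the male line E14tg2a.4, either wild-type (WT, 2 samples) or carrying a heterozygous Srrm2 gene trap (Srrm2 hKO, line CG0630, 2 samples). Srrm2 encodes a splicing factor of nuclear speckles. The mutant is a single trapped line derived from E14tg2a.4, and per the study's methods WT and mutant stocks were kept at different passages, so genotype, clone and passage cannot be told apart. All samples were grown on gelatin with LIF (leukemia inhibitory factor). The labels then name 24 h or 72 h in serum-free medium with LIF, with no sample assigned to either, and the study's single-cell methods give another length. Barcodes end in 1 of 4 library numbers, and which sample each number stands for is not given in the sources used here, so every library is described on its own and Srrm2 hKO is not compared with WT.

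Embryonic stem cells pass from naive pluripotency, kept by factors such as Nanog and Klf4, through a formative state before lineages are specified. In that passage the naive marker Zfp42 (Rex1) is lost, while the homeodomain factor Otx2 and the POU factor Pou3f1 (Oct6) act at the enhancers used by the next state. Fgf5 encodes a secreted growth factor that marks the post-implantation epiblast, Zic2 a zinc-finger factor that binds enhancers, and Sall2 a zinc-finger factor of the spalt family.

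The cell filter was rebuilt from the published description and left somewhat more cells than the total published. It kept 31989 of 41142 barcodes, between 7464 and 8514 per library, with a median of 18378 to 21898 UMIs per cell. Among the kept cells, 105 of 31883 distinct barcode sequences occurred in more than 1 library. Pou5f1, which defines pluripotent cells, stood at 663 to 847 CPM (UMIs per 1000000 UMIs) in every library. Srrm2 stood at 387, 533, 238 and 356 CPM in libraries 1 to 4, and no label says which of these are mutant. Intervals below are exact 95% intervals that cover counting error only, since cells of a library are not replicates. No p-value was computed.

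Otx2 (ENSMUSG00000021848) lies on chromosome 14, 48657677 to 48673819, minus strand. Zic2 (ENSMUSG00000061524) lies on the same chromosome, 122475435 to 122479852, plus strand, and so does Sall2 (ENSMUSG00000049532), 52311172 to 52328762, minus strand. Fgf5 (ENSMUSG00000029337) lies on chromosome 5, 98254184 to 98277030, and Pou3f1 (ENSMUSG00000090125) on chromosome 4, 124656807 to 124660655, both on the plus strand. These positions are for GRCm38. Promoters from RefSeq (GRCm38.p6) were found for 3 of the 5 genes, Otx2, Fgf5 and Sall2. The stretches below are the 250 bases before a start. Fgf5 and Sall2 are shown because they had the highest median correlation over cells of any pair among the 5 genes. Otx2 is shown because it is itself a factor of the class that binds one of the words searched. Capitals mark matches to TAATCC (bicoid class, the type of site OTX factors bind), ATGCAAAT (the octamer of POU factors), CAGCAGG (ZIC), TATAAA or CACGTG, searched on both strands, and no matches overlapped.
Fgf5, chr5:98253934-98254183, plus strand: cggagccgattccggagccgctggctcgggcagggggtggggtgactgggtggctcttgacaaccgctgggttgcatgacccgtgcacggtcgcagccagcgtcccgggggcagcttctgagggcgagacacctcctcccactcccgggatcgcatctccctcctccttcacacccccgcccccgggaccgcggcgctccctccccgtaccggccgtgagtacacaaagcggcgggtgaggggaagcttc
Sall2, chr14:52328671-52328920, minus strand: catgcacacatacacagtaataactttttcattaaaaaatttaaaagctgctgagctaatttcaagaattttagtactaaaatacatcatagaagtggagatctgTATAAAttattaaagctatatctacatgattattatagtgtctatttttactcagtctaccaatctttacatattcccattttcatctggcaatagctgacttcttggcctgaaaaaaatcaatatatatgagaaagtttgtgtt
Sall2, chr14:52316324-52316573, minus strand: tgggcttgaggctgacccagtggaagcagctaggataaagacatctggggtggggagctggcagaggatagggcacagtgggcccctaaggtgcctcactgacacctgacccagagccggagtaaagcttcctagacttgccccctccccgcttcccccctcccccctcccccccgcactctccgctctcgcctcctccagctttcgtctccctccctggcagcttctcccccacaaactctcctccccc
Otx2, chr14:48665110-48665359, minus strand: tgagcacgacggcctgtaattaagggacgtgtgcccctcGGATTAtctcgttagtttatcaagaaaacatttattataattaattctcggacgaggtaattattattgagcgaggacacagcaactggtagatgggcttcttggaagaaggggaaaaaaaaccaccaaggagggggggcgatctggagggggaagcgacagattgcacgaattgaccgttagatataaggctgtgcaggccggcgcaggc
RefSeq gave 4 Otx2 starts, and the one shown was picked because it alone held TAATCC, on the other strand, 211 bases before the start. Another Otx2 start held TATAAA 192 bases before it, and the other 2 held none of the 5 words. For Sall2, the upstream start held TATAAA 145 bases before it. The inner Sall2 start held none of the 5 words. Fgf5 held TATAAA 35 bases past its start, outside the stretch shown. Over all 32851 promoters of 300 bases, 7.06% held TAATCC and 13.6% held TATAAA. GC content of the 300 bases was 68.3% for Fgf5, with 29 CG pairs, against 30.3% and 1 CG pair for the upstream Sall2 start. The median promoter had 52.7% and 7 CG pairs. A match is a description of the letters, not a measured site.

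Fgf5, Pou3f1 and Sall2 differed more than 10-fold between libraries, Otx2 5-fold, and Zic2 less than 2-fold. Otx2 stood at 25.1 CPM (24.3 to 25.9), 90.4 (89.1 to 91.7), 24.4 (23.7 to 25.2) and 123 (121 to 124) in libraries 1 to 4. Libraries 1 and 3 were level for Otx2, with a ratio of 1.03 (0.98 to 1.07), and every other pair of libraries differed by more than the counting error. Fgf5 stood at 0.869, 8.13, 1.76 and 14.8 CPM in libraries 1 to 4, from 145, 1627, 303 and 2572 UMIs. Sall2 stood at 0.869, 9.06, 2.83 and 16.1 CPM, again from 145 UMIs in library 1. Library 4 was thus highest and library 1 lowest for both, by 17.0-fold (14.4 to 20.2) for Fgf5 and 18.5-fold (15.6 to 22.0) for Sall2.

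Pou3f1 had the same order of libraries as Fgf5 and Sall2. It stood at 16.4 CPM (15.8 to 17.0), 77.7 (76.5 to 78.9), 61.8 (60.6 to 63.0) and 168 (166 to 170). Library 3, which was level with library 1 for Otx2, was 3.76-fold (3.61 to 3.93) above it for Pou3f1. Zic2 stood at 30.1, 26.4, 19.9 and 34.4 CPM, and its span of 1.73-fold (1.66 to 1.80) was the smallest of the 5. With size factors in place of total UMIs the highest Zic2 library was 1 and not 4, and the span was 1.65-fold. Of the 5 genes, 4 differed at least 2-fold between the highest and the lowest library, as did 24.4% of the 13255 genes with 400 or more UMIs. The spans of Fgf5 and Sall2 exceeded those of 99.5% and 99.6% of these genes, that of Pou3f1 98.9%, that of Otx2 95.9% and that of Zic2 65.5%. How many of these differences come from genotype, passage or culture cannot be told apart here.

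**Figure D1:**
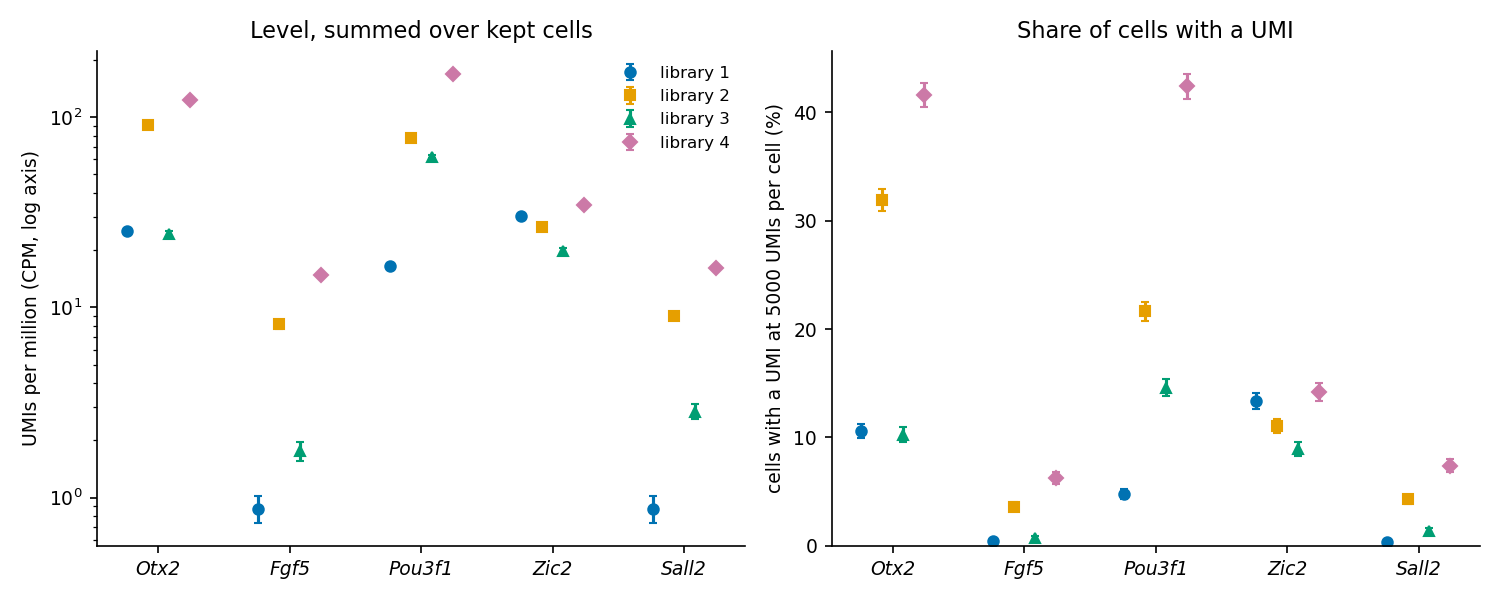
Left, summed level of each gene in kept cells of each library, in CPM on a log axis. Right, percentage of cells with a UMI after every cell was thinned to 5000 UMIs. Points are libraries and bars are exact 95% intervals for counting error. Otx2, Fgf5, Pou3f1 and Sall2 are spread over the libraries while Zic2 stays between 19.9 and 34.4 CPM.

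To compare the share of cells with a transcript at equal depth, each kept cell was thinned to 5000 UMIs, which left out no kept cell. Otx2 was seen in 10.6% (9.92 to 11.3), 31.9% (30.9 to 32.9), 10.2% (9.58 to 10.9) and 41.6% (40.5 to 42.7) of the cells of libraries 1 to 4. Unthinned, these shares were 31.6%, 68.2%, 28.9% and 75.7%. Otx2 transcripts were therefore found in 28.9% or more of the cells of every library. Fgf5 was seen in 0.456%, 3.61%, 0.684% and 6.26% of thinned cells, and Sall2 in 0.370%, 4.26%, 1.36% and 7.40%. Unthinned, Fgf5 reached 1.37%, 10.6%, 2.95% and 19.8% of cells and Sall2 1.65%, 15.2%, 5.47% and 25.6%. Both were seen in the most cells in library 4 and in the fewest in library 1. Zic2 was seen in 13.3%, 11.03%, 8.88% and 14.2% of thinned cells, unthinned in 40.3%, 35.8%, 27.8% and 39.8%. No cells that should lack the 5 genes were at hand as a measure of free RNA, so the shares at the highest Zfp42 are given below as context.

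Pou3f1 transcripts were spread unevenly over cells. The gene was seen in 4.73%, 21.6%, 14.6% and 42.4% of thinned cells in libraries 1 to 4, unthinned in 12.2%, 41.9%, 28.4% and 67.1%. The same number of transcripts spread evenly over the cells would have given 6.37%, 32.0%, 22.2% and 55.2% of thinned cells. The shortfall was smaller for Otx2 (11.5%, 36.6%, 11.5% and 46.6% if even) and small for Sall2 (0.369%, 4.54%, 1.38% and 7.79%). With so few Sall2 transcripts per cell the share stays near the even value under most spreads. The small shortfall of Sall2 therefore says little about how evenly it was spread. Pou3f1 was thus seen in fewer cells than an even spread would give in every library.

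Over all libraries, 43.0% of thinned cells had a UMI of at least 1 of the 5 genes, and 3.73% of 3 or more. Unthinned, 872 cells (2.73%) held all 5, namely 12, 339, 34 and 487 cells in libraries 1 to 4. If the 5 shares in all cells together were independent, 0.0677% of cells would hold all 5, a ratio of 40.3. Library and depth differences enter this ratio. Taken within libraries 1 to 4, still unthinned, it was 423, 24.3, 117 and 6.36. Thinned, 0, 7, 0 and 7 cells held all 5. The ratio for 3 or more of the genes was then 3.71, 2.92, 3.14 and 1.69. Cells with an Fgf5 UMI at the thinned depth also held more of the other transcripts. Sall2 in these cells was 7.61-fold (2.74 to 17.0), 4.25-fold (3.70 to 4.86), 5.67-fold (3.52 to 8.69) and 2.51-fold (2.25 to 2.79) of its level in cells without one, in libraries 1 to 4. For Zic2 the ratio lay between 2.20 and 2.47 in all 4 libraries. For Otx2 it went from 1.41 in library 4 to 2.65 in library 1, and for Pou3f1 from 1.94 in library 4 to 8.499 in library 1. Median depth with and without an Fgf5 UMI was similar in libraries 2 and 4 but differed in library 1 (22003 against 18369 UMIs, 37 cells with one) and library 3 (25775 against 19382, 54 cells).

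The correlation of each pair over the cells of a library was computed with counting noise removed from the variances. Over the 10 pairs and 4 libraries all 40 values were positive, with a median of 0.41. Cells of a library share its depth, its total UMIs as denominator and its handling, so the values are descriptions. Among the 10 pairs, Fgf5 and Sall2 had the highest median, 0.62, with 0.49, 0.78, 0.68 and 0.56 in libraries 1 to 4. Pou3f1 and Sall2 followed with a median of 0.58, at 0.59, 0.73, 0.41 and 0.58. The values of Fgf5 and Sall2 in libraries 1 and 3 rest on few cells, since only 21 and 50 cells there had 2 or more UMIs of Fgf5, and 9 and 49 of Sall2. Of the 10 pairs, Otx2 and Pou3f1 had the lowest median, with 0.11, 0.53, 0.07 and 0.35. These values rest on at least 376 cells with 2 or more UMIs of either gene. In cells with an Otx2 UMI, Pou3f1 was 1.32-fold (1.18 to 1.47), 2.14-fold (2.07 to 2.20), 1.17-fold (1.10 to 1.24) and 1.31-fold (1.29 to 1.35) of its level in the others, and by this measure the intervals of libraries 1 and 4 overlapped.

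The median was lower within cells of like Zfp42. Against Zfp42 itself the correlation of Pou3f1 was -0.35, -0.61, -0.54 and -0.61, and that of Otx2 was -0.05, -0.38, -0.02 and -0.21. With covariances taken within bins of cells of like Zfp42, the median over pairs and libraries was 0.31. In library 3 the 4 pairs with Otx2 were higher within bins, such as 0.30 against 0.22 for Otx2 and Sall2. Fgf5 and Sall2 had 0.37, 0.61, 0.66 and 0.42 within bins, and Pou3f1 and Sall2 had 0.47, 0.45, 0.08 and 0.32. Without the noise correction, on log-scaled values, the median over all pairs was 0.19.

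**Figure D2:**
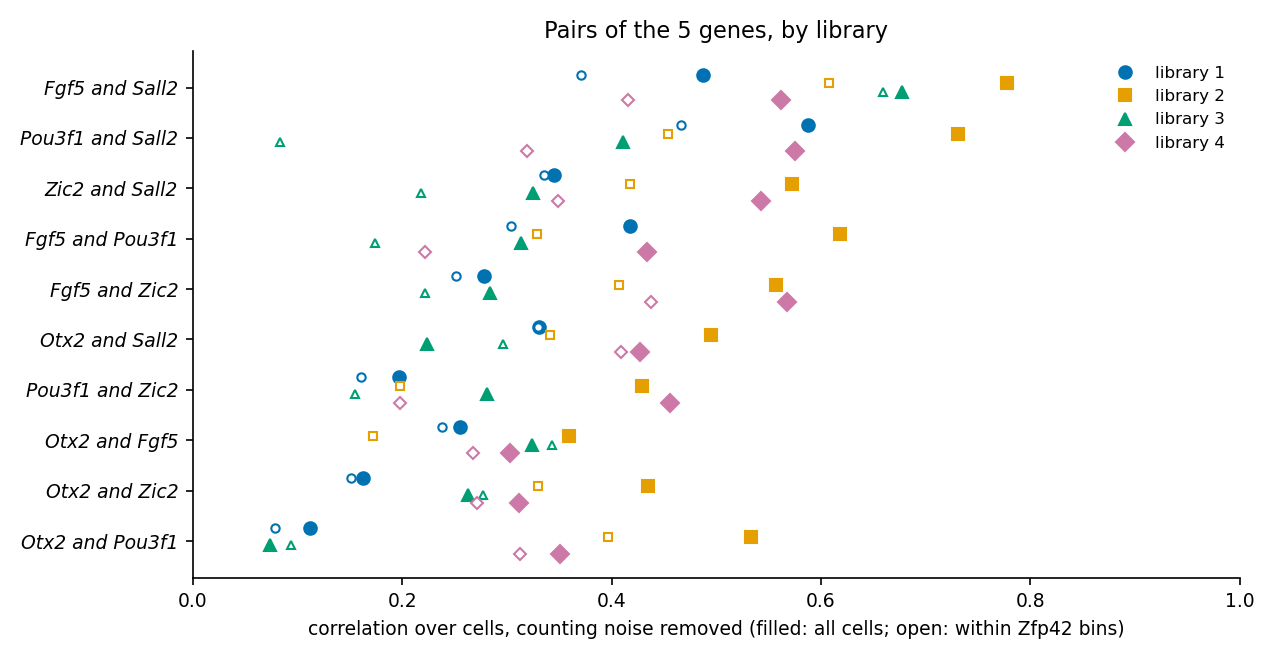
Correlation over cells for each of the 10 gene pairs, with counting noise removed. Filled points use all kept cells of a library and open points the covariance within bins of like Zfp42. Fgf5 and Sall2 lie between 0.49 and 0.78, and Otx2 and Pou3f1 lie farthest left in libraries 1 and 3, at 0.11 and 0.07.

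To follow the genes as Zfp42 fell, the cells of each library were ranked by Zfp42 CPM and cut into 10 equal bins of 746 to 852 cells. Zfp42 went from 1080, 1161, 987 and 1129 CPM in the highest bin to 63.5, 17.8, 0 and 0 CPM in the lowest. Cells with no Zfp42 UMI made up 3.35%, 6.15%, 10.1% and 20.8% of libraries 1 to 4, so the lowest bin of library 3 and the 2 lowest bins of library 4 hold only such cells, in random order. Pou3f1 was more than 10-fold higher at the lowest Zfp42 in every library. It went from 4.74, 18.6, 5.58 and 28.2 CPM in the highest Zfp42 bins to 99.2, 299, 186 and 286 CPM in the lowest. These are ratios of 20.9 (16.4 to 27.1), 16.1 (14.4 to 18.0), 33.3 (26.7 to 42.1) and 10.2 (9.24 to 11.2). At 5000 UMIs it was seen in 2.34%, 7.86%, 3.29% and 10.4% of cells of the highest Zfp42 bin and in 23.4%, 68.2%, 44.2% and 68.8% of the lowest.

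Fgf5 and Sall2 were also higher at low Zfp42 in every library. Fgf5 went from 0.139, 0.854, 0.209 and 1.41 CPM to 6.38, 43.4, 5.09 and 31.4 CPM. The highest Zfp42 bins held only 2, 16, 3 and 24 Fgf5 UMIs, and the ratios were 45.7 (12.4 to 383), 50.9 (31.1 to 89.4), 24.3 (8.05 to 120) and 22.3 (14.8 to 35.2). Sall2 went from 0.418, 2.19, 0.768 and 3.34 CPM to 4.31, 36.1, 8.81 and 29.7 CPM. Its ratios were 10.3 (4.51 to 29.0), 16.5 (12.0 to 23.2), 11.5 (6.23 to 23.5) and 8.88 (6.73 to 11.9). In libraries 2 and 4 the Sall2 intervals lay wholly below those of the Fgf5 ratios, and in libraries 1 and 3 the intervals overlapped. At equal depth Fgf5 was seen in 1, 4, 1 and 5 cells of the highest Zfp42 bins, 0.123% to 0.669%, and in 1.65% to 15.5% of the lowest. For Sall2 these shares were 0% to 1.61% and 1.73% to 14.0%. The share of 0% is 0 of 812 cells in library 1, which allows up to 0.453%.

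Otx2 differed less between the ends of the Zfp42 order. It went from 28.0, 65.0, 23.4 and 87.3 CPM to 33.9, 155, 17.7 and 127 CPM. The ratios were 1.21 (1.06 to 1.38), 2.38 (2.22 to 2.55), 0.76 (0.65 to 0.89) and 1.46 (1.36 to 1.56), so the lowest bin lay above the highest in 3 libraries and below it in library 3. The lowest bin held 324, 133, 1900 and 263 CPM of the keratins Krt8 and Krt18 together, described below, and their part in the ratios was not tested. In library 4 Otx2 reached its highest bin in the middle of the order, at 160 CPM in bin 6. At equal depth it was seen in 11.6%, 25.1%, 10.9% and 32.8% of cells of the highest Zfp42 bin and in 13.1%, 48.2%, 7.35% and 39.8% of the lowest.

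Zic2 differed between libraries in its relation to Zfp42. It went from 36.2, 19.6, 18.4 and 11.9 CPM to 40.2, 58.8, 31.8 and 62.7 CPM. The ratios were 1.11 (0.99 to 1.25), 3.001 (2.66 to 3.39), 1.73 (1.49 to 2.02) and 5.27 (4.52 to 6.17). In the highest Zfp42 bin library 1 held the most Zic2 and library 4 the least, and in the lowest bin library 4 held the most. Library 4 thus changed from lowest to highest, though library 2 was close to it in the lowest bin (58.8 against 62.7 CPM). Library 1 lay above library 3 at both ends. Library 2 did so in the lowest bin, and in the highest its interval (17.6 to 21.7) held the level of library 3.

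**Figure D3:**
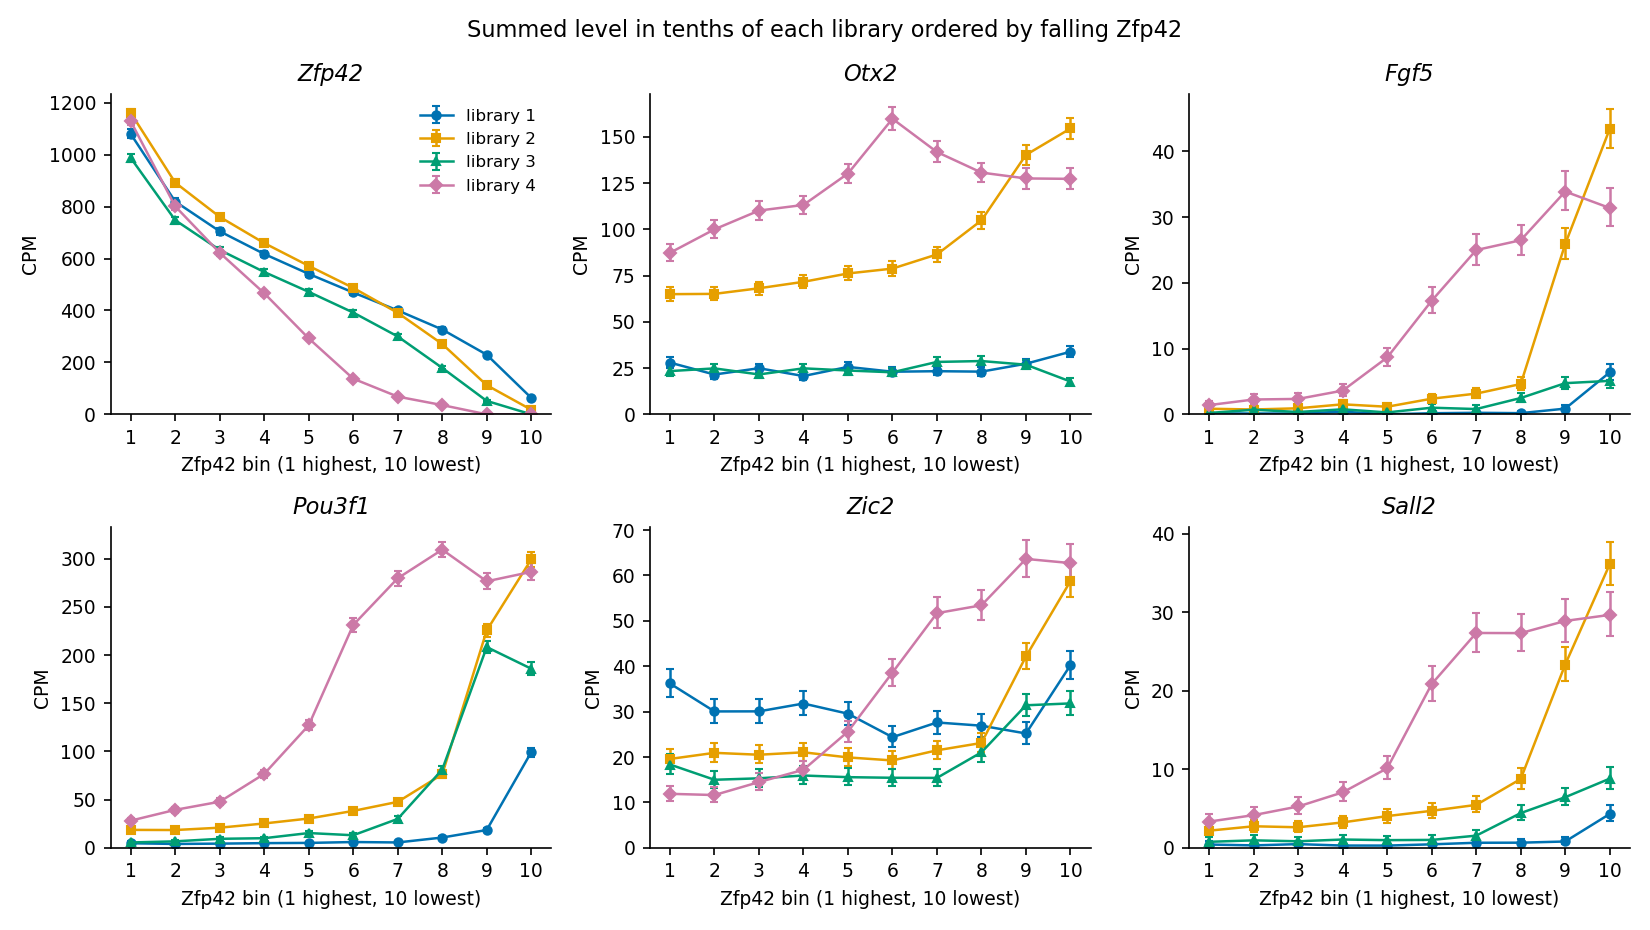
Summed level in CPM of Zfp42 and the 5 genes in 10 equal bins of cells of each library, from the highest Zfp42 (bin 1) to the lowest (bin 10). Bars are exact 95% Poisson intervals. Pou3f1, Fgf5 and Sall2 climb late in libraries 1 to 3 and from the middle bins in library 4, libraries 2 and 4 lie above libraries 1 and 3 for Otx2 in every bin, and the Zic2 lines cross.

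A gene was counted as higher at low Zfp42 when its lowest bin was at least 2-fold above its highest in all 4 libraries, among genes with at least 100 UMIs over both bins in every library. Of the 5, Otx2, Pou3f1 and Zic2 met that minimum, Fgf5 missed it with 88 UMIs in library 3 and Sall2 with 79 in library 1. Only Pou3f1 of these 3 was called higher, against 4.01% of 9541 genes tested (383), and none was called lower, against 1.08% (103). Without the minimum, Fgf5 and Sall2 were above 2-fold in 4 of 4 libraries, Zic2 in 2 and Otx2 in 1.

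Cells matched for Zfp42 still differed between libraries. Among cells with 800 CPM or more of Zfp42, between 916 and 1844 per library, Otx2 stood at 25.7, 65.3, 22.9 and 91.1 CPM and Pou3f1 at 4.41, 18.5, 5.51 and 31.6 CPM. Otx2 spanned 3.98-fold (3.57 to 4.45) with library 4 highest and library 3 lowest, and Pou3f1 7.17-fold (5.85 to 8.85) with library 4 highest and library 1 lowest. Zic2 ran the other way, at 34.0, 20.2, 17.7 and 11.9 CPM, with library 1 2.85-fold (2.499 to 3.27) above library 4. All 3 genes with 400 or more UMIs there differed at least 2-fold between libraries, as did 12.0% of 9539 genes. Fgf5 and Sall2 had too few UMIs, with 4 and 10 in library 1. Among cells with no Zfp42 UMI, Pou3f1 stood at 145, 304, 186 and 281 CPM, a span of 2.10-fold (1.94 to 2.27), and Otx2 at 39.1, 155, 17.7 and 128 CPM, a span of 8.76-fold (7.73 to 9.94). The libraries were thus closer together for Pou3f1 in Zfp42-negative cells than in Zfp42-high cells, and farther apart for Otx2. Library 3, lowest for Otx2 in both classes, had the most keratin in its lowest Zfp42 bin, and the part of this in the span was not tested.

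For the order of onset, the point was taken where a gene, going down the Zfp42 order, crossed 50% of the way from its level in the highest Zfp42 bin to its own highest bin. Pou3f1 reached it after 89.2%, 80.5%, 77.0% and 49.0% of the cells of libraries 1 to 4, Sall2 after 89.5%, 82.1%, 76.8% and 50.9%, and Fgf5 after 89.3%, 83.2%, 75.8% and 55.5%. At these points Zfp42 stood between 134 and 230 CPM. The 3 genes lay less than the width of a bin apart in every library, and their order was not the same in all libraries for any pair. Zic2 came after 93.7%, 83.4%, 78.9% and 54.4%, later than Pou3f1 and Sall2 in all 4 libraries, though also by less than the width of a bin. Otx2 came after 90.5%, 76.4%, 61.0% and 41.1%, before Zic2 in all 4 and before each of the other 3 in libraries 2, 3 and 4 but not in library 1.

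Of the 10 pairs, 3 had the same order in all 4 libraries, namely Otx2, Pou3f1 and Sall2 each before Zic2. The points of Otx2 and Zic2 are weakly defined, since the climb to the highest bin was at least 2-fold in only 1 library for Otx2 and 2 for Zic2, against 4 for the others. Over the main setting and 9 others, Otx2 came before Zic2 in all libraries in 9 of 10, Sall2 before Zic2 in 7 and Pou3f1 before Zic2 in 6. By the percentage of cells passed, every gene reached its point earliest in library 4 and latest in library 1. By the Zfp42 level at the point the libraries did not keep that order. This level was 158, 140, 169 and 134 CPM in libraries 1 to 4 for Fgf5, and 161, 183, 153 and 230 CPM for Pou3f1.

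**Figure D4:**
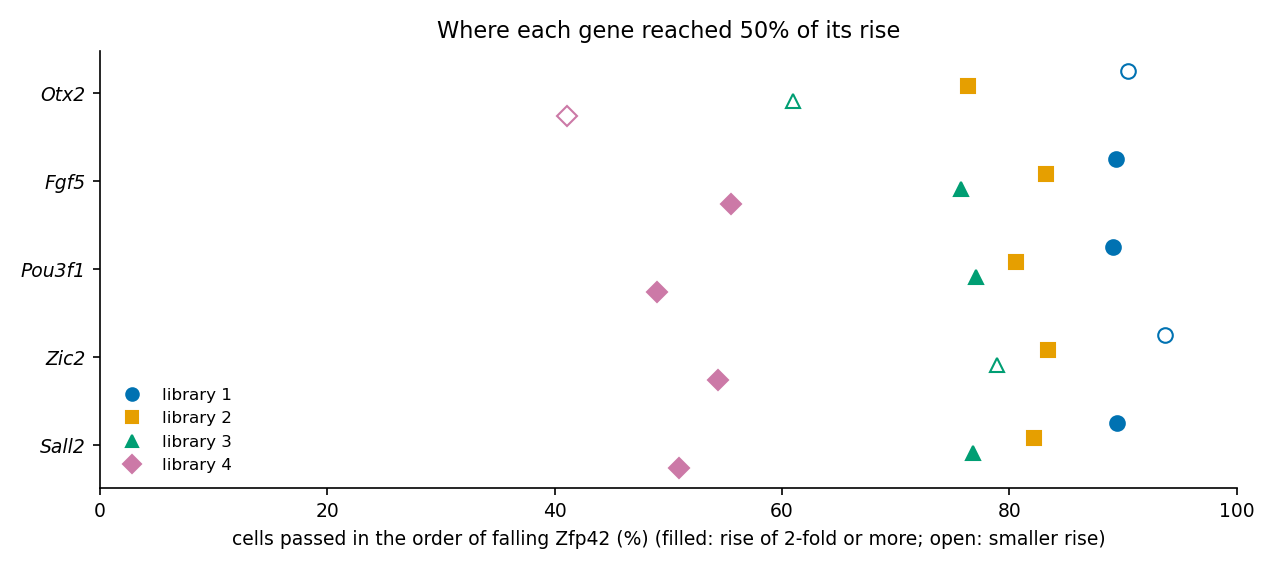
Percentage of cells passed, in the order of falling Zfp42, when each gene reached 50% of its climb, by library. Open points mark a climb of less than 2-fold, where the position is weakly defined. Pou3f1, Fgf5 and Sall2 lie together within each library and shift together between libraries.

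Low Zfp42 also marks cells high in the epithelial keratins Krt8 and Krt18. Among the 30% of cells with the lowest Zfp42, those at or above 200 CPM of both keratins together numbered 101, 96, 789 and 446 in libraries 1 to 4, against 2334, 2458, 1578 and 1793 others. Otx2 was lower in the keratin-high cells in every library, at 15.8 against 28.9 CPM, 76.2 against 135, 9.56 against 34.2 and 69.1 against 145. The log2 ratios were -0.88 (-1.33 to -0.46), -0.82 (-1.06 to -0.60), -1.84 (-2.06 to -1.63) and -1.07 (-1.18 to -0.96). Pou3f1 was not lower in any. It stood at 251 against 30.1 CPM, 270 against 196, 211 against 129 and 295 against 292, log2 ratios of 3.06 (2.93 to 3.19), 0.46 (0.34 to 0.58), 0.72 (0.66 to 0.77) and 0.02 (-0.04 to 0.07).

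Fgf5, Sall2 and Zic2 divided by library. Fgf5 had log2 ratios of 1.75, 0.08, -0.78 and -0.90, Sall2 of 1.28, 0.02, -0.36 and -0.78, and Zic2 of 0.27, 0.18, -0.81 and -0.56. At this limit all 3 were thus lower in keratin-high cells in libraries 3 and 4, and not in libraries 1 and 2. Of the 4 genes with enough UMIs (Sall2 had too few), none was at least 2-fold lower in all 3 libraries with 100 cells in each class, against 0.775% of 10326 genes. Keratin-high cells in libraries 1 to 3 also had less Zfp42 than the others, and more UMIs in libraries 1, 3 and 4 (medians of 25053 against 17996, 23796 against 20155 and 22403 against 21428). The part of the naive transcripts or of depth in these ratios was not tested.

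The limit on keratins bears on every gene but Pou3f1. At a limit of 400 CPM, with 69, 35, 635 and 213 cells, Otx2 stood at 6.13, 22.9, 8.15 and 29.9 CPM against 29.1, 135, 32.5 and 141, log2 ratios of -2.25, -2.56, -1.99 and -2.24. Pou3f1 stood at 264, 297, 207 and 292 CPM in the same cells. In library 2, with 35 cells at this limit, Fgf5 had -1.69 (-3.01 to -0.65), Sall2 -2.39 (-4.27 to -1.03) and Zic2 -0.93 (-1.64 to -0.30), where at 100 CPM they had 0.87, 0.66 and 0.69. At a limit of 100 CPM, with 188 to 1000 cells, the ratio of Otx2 in library 1 was 0.23 (-0.01 to 0.47), while libraries 2 to 4 stayed below 0 at -0.14, -1.29 and -0.55. In library 3 the intervals of Fgf5, at -0.32 (-0.71 to 0.06), and Sall2, at -0.21 (-0.52 to 0.09), then included 0. Between 119 and 714 of the Zfp42-low cells per library lay between 100 and 400 CPM of keratins, near the limit of 200 CPM. The 6 trophectoderm markers summed to 24.5 to 62.5 CPM in keratin-high cells and 2.97 to 3.56 CPM in the others. Krt7, also a keratin, gave 14.7, 10.8, 44.6 and 20.2 CPM of these sums in keratin-high cells of libraries 1 to 4. Hand1 had 1 UMI in those of library 1. Gata3, Krt7 and Hand1 were higher in all 4 libraries, while Cdx2 and Plac1 were at 0 in keratin-high cells of library 1. Elf5 was nearly absent, with 0, 0, 1 and 0 UMIs in keratin-high cells of libraries 1 to 4. The 6 primitive endoderm markers summed to 2.35 to 16.7 CPM against 0.827 to 2.07, and the 6 streak markers to 12.1 to 25.7 against 3.72 to 8.34. T alone gave 8.38, 16.4, 8.92 and 4.88 CPM of the streak sums in keratin-high cells of libraries 1 to 4. Mesp1 was lower there than in the others in libraries 2 to 4, and Gsc in libraries 1 and 4. The 6 neural markers summed to 2.91 to 5.42 against 4.68 to 19.7. Foxq1, T and Six3 were higher in all 4 libraries, Six3 from 1, 1, 9 and 5 UMIs in keratin-high cells. Hesx1 was lower in all 4, as was Pax6, at 1.01, 1.87, 2.34 and 1.59 CPM against 15.0, 7.61, 8.64 and 3.82. Gata4, Sox17, Pdgfra and Cubn were at 0 in keratin-high cells of library 1. Sox17 was also at 0 in those of library 2, and Neurog2 had 0, 0, 0 and 1 UMIs in those of libraries 1 to 4. None of these markers was at 0 in the keratin-high cells of all 4 libraries. The 6 contractile genes summed to 1256 to 3829 CPM against 49.7 to 269. Their part in the levels of the 5 genes was not tested.

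**Figure D5:**
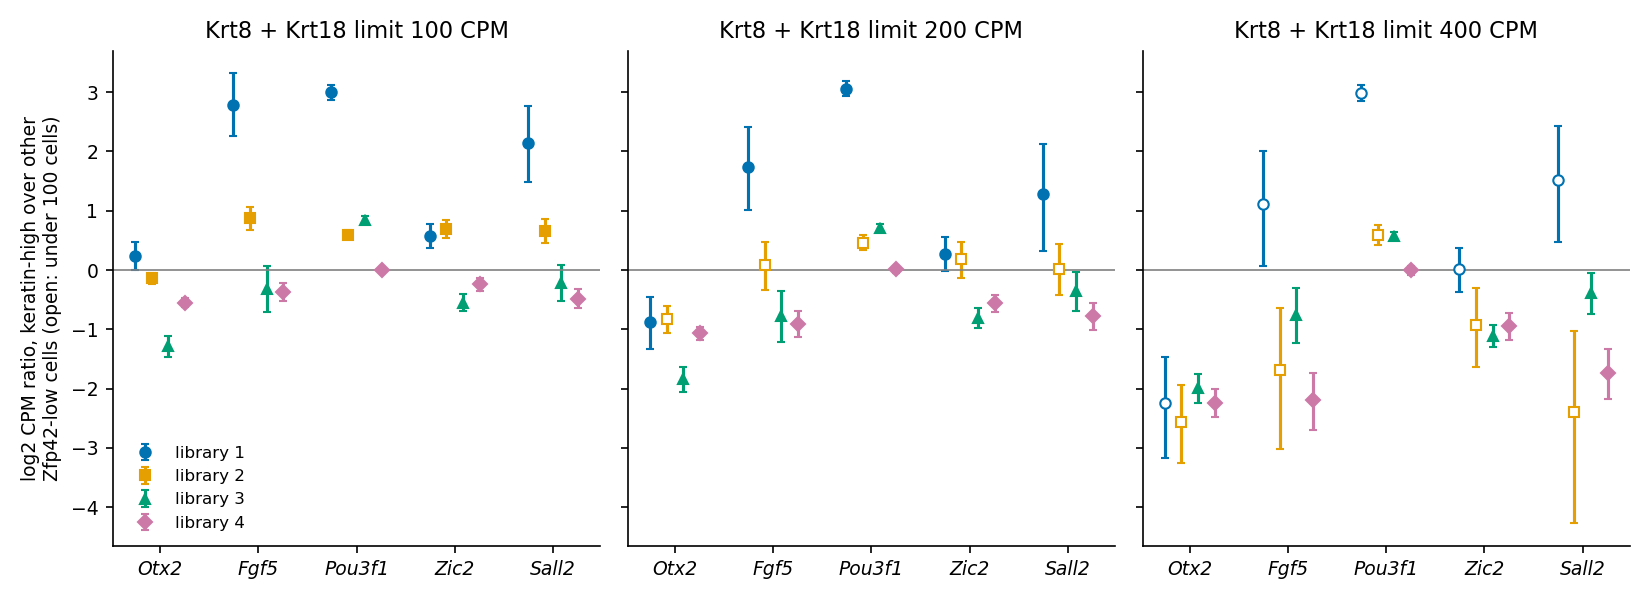
Log2 ratio of CPM in keratin-high over other Zfp42-low cells for each gene and library, at 3 limits on Krt8 and Krt18 together. Bars are exact 95% intervals and open points mark classes under 100 cells. At 400 CPM all 4 Otx2 ratios lie between -2.56 and -1.99, and the Pou3f1 ratio is 2.98 in library 1 and -0.00 in library 4.

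Of 12 relatives of the 5 genes, 5 had enough UMIs, and 0 of these were called at least 2-fold higher or lower in all 4 libraries, where 4.01% and 1.08% of all genes tested were, with a median log2 ratio of -0.79 where all genes had 0.09. Zic5 was higher at low Zfp42 in all 4 libraries, by under 2-fold in libraries 1 and 3. It went from 39.3, 37.2, 28.1 and 27.8 CPM in the highest Zfp42 bin to 51.7, 74.7, 41.4 and 78.8 in the lowest. Fgf4, which signals in naive cells, went from 92.1, 106, 73.7 and 95.8 CPM to 53.9, 52.7, 20.97 and 35.0 while Fgf5 climbed. Sall4 stayed within a log2 ratio of -0.70 to 0.13 and Sall1 had -1.12, -0.75, -2.22 and -0.83. Fgf8 had too few UMIs to be counted, was more than 2-fold higher in all 4 libraries, and went from 0.0698, 0.373, 0.349 and 0.879 CPM to 1.06, 9.33, 5.87 and 6.63. Otx1, Pou3f2, Pou3f3 and Zic1 had at most 6 UMIs in either bin of any library, and Crx had 0.

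Zic5 lies next to Zic2 on chromosome 14, 9758 bases away on the opposite strand. The 2 went together over cells, at 0.85, 0.84, 0.79 and 0.88 in libraries 1 to 4, which is above any pair among the 5 genes. Over the 40 points of library by bin, each library centred, Zic5 was also the gene most like Zic2 of 10333 compared, at a Pearson correlation of 0.98, ahead of H1f0 (0.96) and Sept6 (0.96). The points share cells, bins and depth.

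By the same measure the genes most like Pou3f1 were Pim2 (0.99), which encodes a serine/threonine kinase, Bst2 (0.99) and Arl4c (0.99). Fgf5 was closest to Nectin1 (0.98), a cell adhesion gene, Zfp36l2 (0.98) and Dnaaf2 (0.98), and Sall2 to Prickle1 (0.99), a planar polarity gene, Nectin1 (0.99) and Pcdh1 (0.98). Otx2 had no gene so close, with Sept3 (0.87), Gm26644 (0.87) and Rbpms2 (0.85) at the top. Of the other neighbours, Utp11, 17505 bases from Pou3f1, had 0.91 but went only from 93.7 to 106 CPM in the highest Zfp42 bins to 116 to 139 in the lowest. Mettl3, 6044 bases from Sall2, had 0.40, and Exoc5 and Tmem260 beside Otx2 had 0.40 and 0.37. Prdm8 and Cfap299 beside Fgf5 had 167 UMIs each, too few to compare. The antisense RNA Otx2os1 had 17 to 108 UMIs per library.

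Of 11 other formative genes with enough UMIs, Dnmt3b and Sox3 were at least 2-fold higher at low Zfp42 in all 4 libraries and none was lower, with a median log2 ratio of 0.47, where 4.01% of all genes tested were called higher. Dnmt3b, a de novo DNA methyltransferase, went from 52.4, 235, 83.6 and 286 CPM to 227, 1050, 226 and 873. Sox3 went from 1.19, 1.60, 2.09 and 2.58 CPM to 12.1, 22.8, 16.2 and 22.0. Dnmt3b differed between libraries in cells matched at 800 CPM or more of Zfp42 by 5.23-fold (4.94 to 5.55), with library 4 highest and library 1 lowest. Utf1, also on the list, stayed within a log2 ratio of -0.43 to 0.30. Among 6 tested FGF receptors and feedback genes of the ERK pathway, Dusp4 alone was called higher, with Dusp6 at log2 ratios of 1.48, 1.35, 1.84 and 0.98 and Fgfr1 at 1.07, 1.07, 1.14 and 0.79. Spry2 had -0.21, 0.48, -0.28 and -0.30, Etv4 0.36, 1.45, -0.37 and 0.44, and Etv5 -0.13, -0.09, -0.96 and -0.42. Of 8 tested naive genes, 6 were called lower, among them Nanog and Klf4, where 1.08% of all genes tested were. The primitive streak, primitive endoderm, trophectoderm and 2-cell-like lists had no gene with enough UMIs, and of the neural list only Pax6 had, at -0.90, -2.17, -2.87 and -2.09.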

How the data were processed

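Single-cell RNA-seq libraries were made with 10x Genomics Chromium 3' v3 chemistry. Per the study's methods the authors aligned and counted reads with Cell Ranger 6.1.2 against the mm10 2020-A reference and aggregated 4 libraries with default settings, which equalise depth by subsampling reads. The deposited matrix holds integer UMI counts per gene and barcode for all 4 libraries together, and so may follow that subsampling. Barcodes were kept where UMIs and genes were no more than 1 SD below their library mean and mitochondrial UMIs were at most 10%, after the study's methods. Doublets were not called. An alternative left out 1615 cells above 2 times their library's median UMIs.

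Counts were summed over cells and divided by total UMIs (CPM). Poisson intervals, conditional exact intervals for ratios and Clopper-Pearson intervals for shares are at 95%. A count of 0 allows up to the upper limit of its interval. Noise-corrected correlations replaced each squared count by x(x-1)/(n(n-1)), n being the UMIs of the cell. Ties in Zfp42 were broken at random with a fixed seed. Likeness was the Pearson correlation of log2(CPM + 5) over 40 points among genes with at least 2000 UMIs. Named genes were the 5 genes, fixed lists, the 3 genes most like each outside the 5, and chromosomal neighbours. A bin at 0 entered ratios at 3 counts. The genes and lists were chosen with earlier results of these data known. A genotype comparison, written into the design, could not be made without a map from libraries to samples. Scripts were tested on simulated data. Software was Python 3.11.15, numpy 2.4.6, scipy 1.17.1, pandas 2.3.3 and matplotlib 3.10.9. Positions are from GENCODE M21 and promoters from RefSeq.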

Additional observations from a re-analysis of the deposited data

Results flagged for a closer look

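The 9153 barcodes removed by the cell filter also held transcripts of all 5 genes. Elsewhere they entered only alternative settings that used all barcodes. Summed over them, Otx2 stood at 70.0 CPM, Fgf5 at 6.72, Pou3f1 at 70.0, Zic2 at 24.2 and Sall2 at 10.4, each above the level that a count of 0 allows. In the kept cells the same sums were 67.1, 6.51, 81.6, 27.6 and 7.35 CPM. The libraries enter both sums in different proportions, so the sums do not compare removed barcodes with kept cells. By library, Fgf5 stood at 0.790, 7.45, 1.09 and 13.9 CPM in removed barcodes against 0.869, 8.13, 1.76 and 14.8 in kept cells. Sall2 stood at 1.58, 11.4, 3.26 and 20.3 CPM against 0.869, 9.06, 2.83 and 16.1. Removed barcodes had medians of 2429 to 3216 UMIs and 14.3% to 21.4% mitochondrial UMIs. By library, Otx2 in them stood at 17.6, 78.1, 23.0 and 129 CPM and Pou3f1 at 15.4, 70.8, 30.6 and 135 CPM, so library 4 was highest for both, as in the kept cells.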

How the results depend on the processing

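The median fold between the highest and the lowest library over the 5 genes was 10.2, and it was 8.83 with median-of-ratios size factors, 12.6 as a mean of per-cell CPM and 12.9 without cells of very high UMI count. The 43.0% of cells with a UMI of any of the 5 genes became 25.0% at 2000 UMIs per cell, 58.2% at 10000 and 72.4% with no thinning, and 42.1% without cells of very high UMI count. The median correlation of 0.41 was 0.19 on log-scaled values and 0.21 by rank, both without noise correction. The number of pairs in the same order in all libraries, 3 in the report, was 1 with 5 bins, 5 with the naive list in place of Zfp42 and 1 with all barcodes. The 383 genes higher at low Zfp42 were 799 at 1.5-fold, 108 at 4-fold, 110 with a minimum of 400 counts, 243 without keratin-high cells and 596 without library 1. Leaving out each library in turn gave between 392 and 596 genes. This number could not fall below 383, since a gene then had to pass in fewer libraries. The median log2 ratio of keratin-high over other Zfp42-low cells, -0.56, is over libraries 1, 3 and 4. It was 0.12 at a keratin limit of 100 CPM, where library 2 also had 100 cells and entered. By alternatives chosen after seeing the data, it was -0.21 at that limit over libraries 1, 3 and 4, and -0.17 over all 4 libraries at 200 CPM. The highest ratio of Otx2 became 0.23 at 100 CPM, in library 1. The causes were not tested. No paired analysis was possible because the library numbers carry no replicate label. Library 1 had the fewest UMIs of Fgf5 and Sall2, 145 each, which limits what could be seen of both there.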
